A study of Mus musculus with 4 samples.

Results

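Genes that respond to glucocorticoid hormones, together with the gene of their receptor, were followed in mouse brain. They were 10 in number, taken by symbol from a list (Sgk1, Tsc22d3, Ddit4, Fkbp5, Errfi1, Zbtb16, Cdkn1a, Klf9, Plin4 and Nr3c1) and not by a threshold on their values. The list was nevertheless fixed with earlier results of these data known. All 10 were found among 45215 genes, with 45 of the 128603 transcripts listed. All 10 were also among the 13768 genes compared, those with a mean of at least 1 FPKM (fragments per kilobase of transcript, scaled to the fragments mapped in the library). As background, corticosterone, the glucocorticoid of mice, enters the brain and binds the glucocorticoid receptor, which Hsp90 chaperones hold in the cytoplasm until the hormone arrives. The bound receptor moves to the nucleus and attaches to response elements, inverted repeats of a 6-base word, beside genes it switches on.

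RNA was measured in brain of wild-type mice of 4 groups with 1 library each. F1r was the hybrid labelled CAST/EiJ x C57BL/6, F1i the hybrid labelled C57BL/6 x CAST/EiJ, CAST the wild-derived inbred strain CAST/EiJ, and B6 the inbred strain C57BL/6. The labels do not say which parent of a cross was the dam, and the sources used here give no age, hour of death or handling. The left hemispheres of 5 animals were pooled for each library. No value below therefore has a replicate, an error or a test, and a difference between 2 libraries may be one between 2 pools. Differences are of log2(FPKM + 1), which understates the change of low genes, and levels are FPKM per gene unless a transcript is named. In bulk tissue, fewer cells of a type and less RNA per cell cannot be told apart.

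The deepest library was B6, and the estimated depth relative to it was 0.725 in F1r, 0.809 in F1i and 0.711 in CAST. Ddx3y of the Y chromosome was at 17.6 FPKM in F1r, 16.1 in F1i, 19.1 in CAST and 17.5 in B6, and Xist was at 0.0021 FPKM or less in each. Brain markers were present: all 6 neuron markers and all 7 astrocyte markers passed the filter, with neuron sums of 1368, 1309, 1217 and 1323 FPKM in F1r, F1i, CAST and B6. Of the 31-base words in each gene's annotated transcripts, 9.78% recurred in other genes for Cdkn1a and at most 2.06% for the other 9. Plin4 shares 17 of its 5777 exonic bases with a gene on the opposite strand, and no other of the 10 overlaps a gene listed at 0.1 FPKM or more. Whether CAST alleles were lost in alignment to a genome of B6 origin was not tested.

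Promoter windows of 300 bases (250 before a transcript start and 50 after it, RefSeq, build GRCm38.p6, from the C57BL/6J genome) were given for 8 of the 10 genes, 17 windows in all. They were searched for the receptor's word AGAACA and its reverse complement TGTTCT, so that both strands were covered, and for the full response element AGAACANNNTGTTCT, which contains both words. The word was in 4 of the 17 windows (23.5%) and in 19.0% of all 32851 windows of the same length. The full element was in 3 of all windows (0.00913%), and 1 of these 3 belongs to Sgk1. It reads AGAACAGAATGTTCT and starts 189 bases before the start of transcript Sgk1-202 and 965 bases before that of Sgk1-201, the transcript that held most of the gene's signal. The 3 windows shown are the one with the full element, that of the main Sgk1 start, which held no copy of the word, and the Tsc22d3 window with 1 copy. Capitals mark the word, each window is written 5′ to 3′ on the gene's own strand, and a match or its absence describes these letters only.
Sgk1-202 start, chr10:21993640-21993939, plus strand: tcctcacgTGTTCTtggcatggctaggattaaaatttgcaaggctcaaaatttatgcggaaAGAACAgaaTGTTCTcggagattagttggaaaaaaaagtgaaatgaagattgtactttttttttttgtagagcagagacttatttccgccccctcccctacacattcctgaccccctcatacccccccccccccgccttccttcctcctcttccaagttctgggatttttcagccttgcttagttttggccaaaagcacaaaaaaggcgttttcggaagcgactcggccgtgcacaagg
Sgk1-201 start, chr10:21994416-21994715, plus strand: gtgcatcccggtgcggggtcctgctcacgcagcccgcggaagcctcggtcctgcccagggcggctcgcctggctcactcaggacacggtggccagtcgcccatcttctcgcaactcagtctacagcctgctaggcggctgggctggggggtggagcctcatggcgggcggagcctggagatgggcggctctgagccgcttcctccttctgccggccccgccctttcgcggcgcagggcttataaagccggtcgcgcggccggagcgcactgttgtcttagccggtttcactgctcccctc
Tsc22d3 distal start, chrX:140600473-140600772, minus strand: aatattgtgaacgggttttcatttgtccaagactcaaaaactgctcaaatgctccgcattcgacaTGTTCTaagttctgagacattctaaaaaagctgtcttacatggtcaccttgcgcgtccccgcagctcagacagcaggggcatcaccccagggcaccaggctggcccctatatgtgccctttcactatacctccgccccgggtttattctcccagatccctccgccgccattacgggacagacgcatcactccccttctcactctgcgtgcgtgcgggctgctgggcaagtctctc

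In GRCm38 the genes lie apart, with Sgk1 at chr10:21882184-21999903, Ddit4 at chr10:59949669-59951834, Fkbp5 at chr17:28399095-28517524, Cdkn1a at chr17:29090979-29100722 and Plin4 at chr17:56100591-56109803. Errfi1 is at chr4:150853919-150868892, Zbtb16 at chr9:48654297-48836222, Nr3c1 at chr18:39410545-39491301, Klf9 at chr19:23141226-23166911 and Tsc22d3 at chrX:140539528-140600659. Their levels spanned a wide range. Tsc22d3, which encodes the anti-inflammatory leucine zipper protein GILZ, was highest at 98.5 FPKM in F1r, 71.6 in F1i, 71.1 in CAST and 84.6 in B6. Sgk1, a kinase that acts on ion channels and transporters, was at 66.0 in F1r, 42.0 in F1i, 47.0 in CAST and 74.3 in B6. Klf9, a Krüppel-like transcription factor, was at 54.3, 44.6, 47.8 and 46.9 FPKM in the same libraries. The mean level over the 4 libraries then ran through Ddit4 (31.2 FPKM), Nr3c1 (27.5), Errfi1 (14.2), Zbtb16 (12.8), Fkbp5 (11.8) and Cdkn1a (6.71) to Plin4 (3.35). Neighbours in this order such as Errfi1, Zbtb16 and Fkbp5 overlapped in their ranges over the libraries.

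The highest library was above the lowest by 1.07-fold for Nr3c1 and 2.34-fold for Plin4 on FPKM, with a median of 1.42-fold over the 10 genes and 1.25-fold over all genes compared. A ratio of at least 1.5 was reached by 4 of the 10 (Sgk1, Ddit4, Fkbp5 and Plin4) and by 22.7% of all genes. F1r was the highest library for 6 of the 10, against 21.7% of all genes, and F1i the lowest for 4, against 19.5%. B6 was the lowest for another 4 (Fkbp5, Zbtb16, Plin4 and Nr3c1), against 36.5% of all genes.

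**Figure D1:**
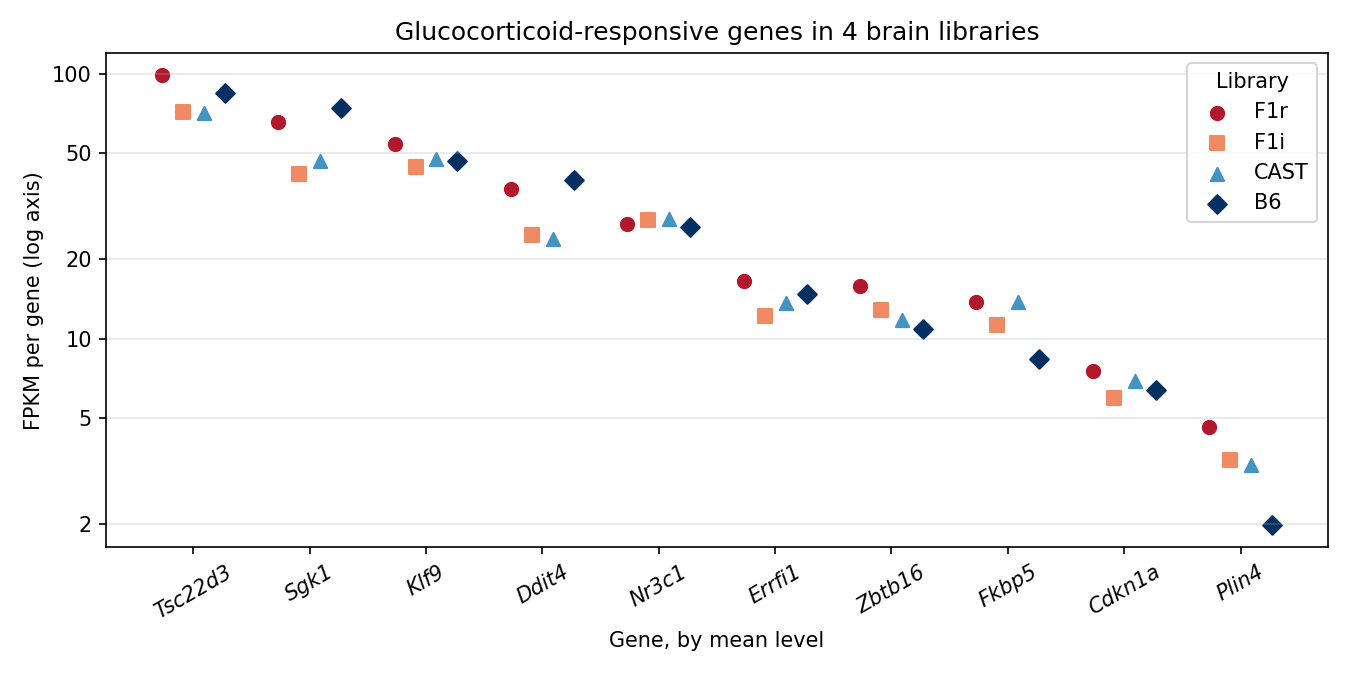
FPKM per gene (log axis) of the 10 genes, ordered by mean level, with 1 point for each of the libraries F1r, F1i, CAST and B6. On the deposited scale F1r lies above F1i for every gene but Nr3c1 (which turns to 0.22 under common-total scaling), and B6 is the lowest point for Fkbp5 (8.34 FPKM) and Plin4 (1.98 FPKM).

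Both hybrids inherit 1 set of autosomes from each strain, so F1r against F1i compares the directions of the cross. All but Nr3c1 were higher in value in F1r, 9 of 10 against 58.1% of all genes. None of the 10 passed a 2-fold difference, which 0.24% of all genes passed upward and 0.269% downward (0.508% in all). Sgk1 alone passed 1.5-fold on the deposited scale, against 1.19% of all genes upward and 0.777% downward (1.97% in all). Under common-total scaling Ddit4, Tsc22d3 and Errfi1 passed too, 4 of 10. The share of all genes past 1.5-fold was not counted under that scaling. All 9 were at least 1.2-fold higher, a threshold chosen after the values were seen, against 8.2% of all genes upward, and none was 1.2-fold lower, against 5.34%. Under median-ratio scaling 6 of the 9 remained, since Fkbp5 (0.24), Klf9 (0.24) and Zbtb16 (0.25) fell short. The share of all genes past 1.2-fold was not counted under median-ratio scaling. The median of the 10 was 0.32, against 0.03 over all genes. Rescaling to a common total FPKM moved the median of all genes to 0.27. All 10 were then above 0, as were 92.5% of all genes, and 9 of 10 were above that median.

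By size, the kinase Sgk1 came first with a difference of 0.64 (66.0 FPKM in F1r and 42.0 in F1i). Ddit4, an inhibitor of the growth-controlling kinase complex mTORC1, followed at 0.56, with 36.8 FPKM in F1r and 24.6 in F1i. Tsc22d3 was at 0.45 and Errfi1, a feedback inhibitor of the epidermal growth factor receptor, at 0.41, with 16.5 FPKM in F1r and 12.1 in F1i. These 4 were thus a kinase, 2 inhibitors of growth signalling and the GILZ gene. Plin4, a coat protein of lipid droplets, had a difference of 0.33, from levels of 4.62 FPKM for F1r and 3.47 for F1i. For the cell cycle inhibitor p21, Cdkn1a, the difference was 0.30, between 7.57 FPKM in F1r and 5.96 in F1i. Zbtb16, a zinc finger repressor, was at 0.28, with 15.8 FPKM in F1r and 12.8 in F1i. Klf9 was at 0.28 and Fkbp5 at 0.27, so these 5 genes lay close together. Nr3c1, the receptor gene, was at -0.046 (0.22 under common-total scaling), with 27.1 FPKM in F1r and 28.0 in F1i.

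**Figure D2:**
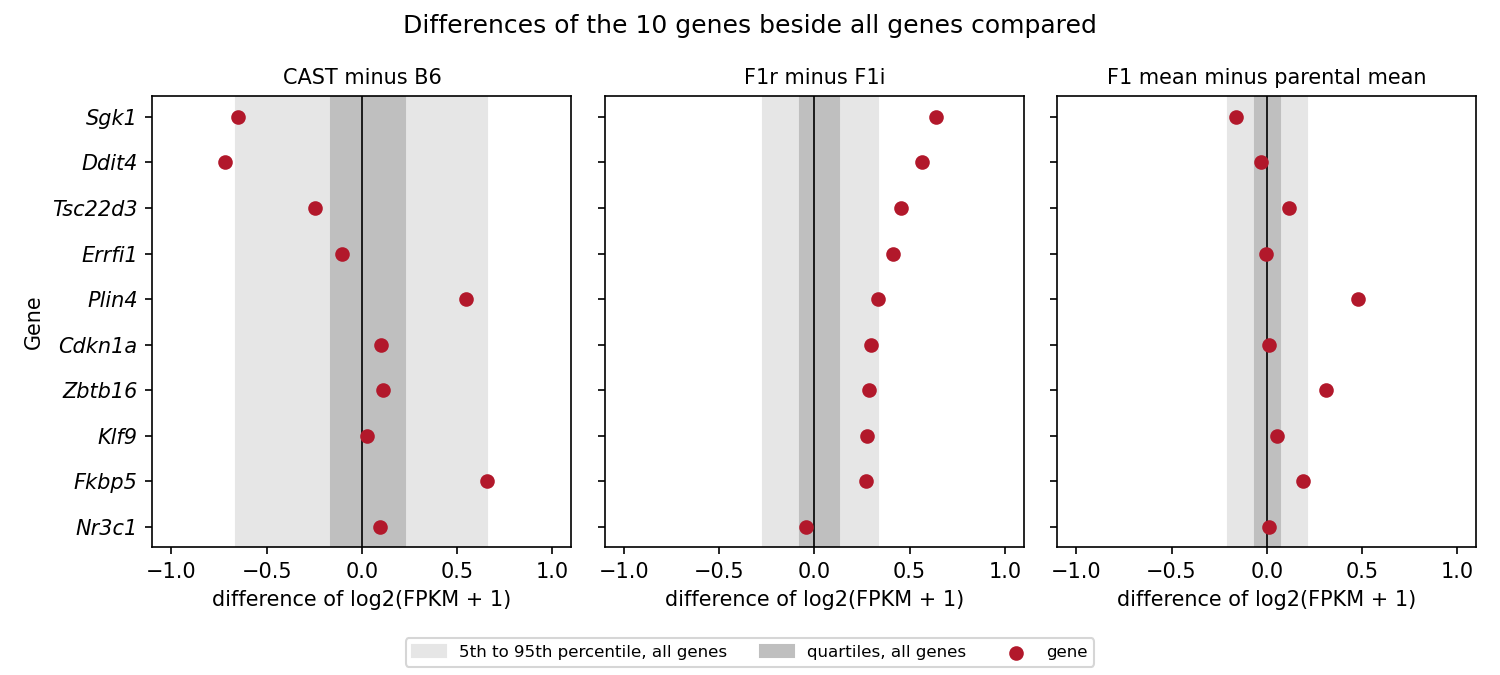
Differences of log2(FPKM + 1) of the 10 genes (points) in 3 comparisons, with the quartiles (dark band) and the 5th to 95th percentile (light band) of all 13768 genes. Between the hybrids, Sgk1 (0.64), Ddit4 (0.56), Tsc22d3 (0.45) and Errfi1 (0.41) lie beyond the 95th percentile of 0.34, whereas CAST minus B6 places genes on both sides of 0.

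CAST against B6 asked how the parental strains differ, and here the genes parted. Sgk1 (47.0 FPKM in CAST and 74.3 in B6) and Ddit4 (23.8 in CAST and 39.8 in B6) were lower in value in CAST, with differences of -0.65 and -0.72 (-0.31 and -0.39 under common-total scaling). Fkbp5 (13.8 in CAST and 8.34 in B6) and Plin4 (3.34 in CAST and 1.98 in B6) were higher in value, at 0.66 and 0.55. None of the 10 passed 2-fold, against 2.85% of all genes upward and 2.27% downward (5.12% in all). At 1.5-fold, Fkbp5 was higher and Sgk1 and Ddit4 were lower, against 6.06% and 6.08% of all genes (12.1% in all). Under common-total scaling both lower calls were lost, and Plin4 (0.79) passed beside Fkbp5 (0.97). Shares of all genes past 1.5-fold or 1.2-fold were not counted under that scaling. At 1.2-fold Plin4 joined Fkbp5, 2 higher and 2 lower, against 21.3% and 17% of all genes. In all, 6 of the 10 were above 0, against 55.4% of all genes. Under common-total scaling 6 were 1.2-fold higher, 2 were lower and 8 were above 0. By that scaling 84.4% of all genes were above 0, with a median of 0.34 that is itself past 1.2-fold. Rescaling to a common total changed the split over all genes from 393 higher and 312 lower at 2-fold to 597 higher and 179 lower, and for F1r against F1i from 33 and 37 to 62 and 30.

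The other 6 differed less between the strains. Tsc22d3 was at -0.25, with 71.1 FPKM in CAST and 84.6 in B6. Errfi1 was at -0.11, with 13.6 FPKM in CAST and 14.7 in B6. Both turned positive, at 0.09 and 0.21, when libraries were rescaled to a common total. Zbtb16 (0.11, or -0.14 for its highest transcript alone), Cdkn1a (0.10), Nr3c1 (0.09) and Klf9 (0.03) were slightly higher in value in CAST, of which Klf9 turned to -0.014 under median-ratio scaling. The median of the 10 was 0.06, against 0.04 over all genes.

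Sgk1, Ddit4, Tsc22d3 and Errfi1 shared an order of libraries on the deposited scale, with both F1r and B6 above both F1i and CAST. Of all genes, 17.3% also had this order. Under common-total scaling Tsc22d3 and Errfi1 lost it, since CAST was then above B6, with differences of 0.09 and 0.21. Sgk1 and Ddit4 stayed lower in CAST than in B6, at -0.31 and -0.39. The share of all genes with this order was not counted under that scaling. For Ddit4, F1r and B6 were at 36.8 and 39.8 FPKM and F1i and CAST at 24.6 and 23.8. Of the 10, only Tsc22d3 is X-linked, while Sgk1 and Ddit4 are on chromosome 10 and Errfi1 is on chromosome 4. The mitochondrial gene mt-Nd1 had the same order, at 1914 FPKM in F1r, 455 in F1i, 563 in CAST and 1853 in B6. With 1 pool per group, the maternal line, the pool and the library cannot be told apart.

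Set against the mean of both parents, the mean of both hybrids was higher in value for 7 of the 10 genes. The share of all genes was 51% (5 of the 10 against 39.9% under common-total scaling). None passed 2-fold or 1.5-fold, against 0.298% and 0.85% of all genes upward and 0.0944% and 0.254% downward (0.392% and 1.1% in all), though with a pseudocount of 0.1 Plin4 passed 1.5-fold at 0.62. The share of all genes past 1.5-fold was not counted with that pseudocount. At 1.2-fold Plin4 (difference 0.48) and Zbtb16 (0.31) were higher and none was lower, against 3.32% and 2.5% of all genes. On the deposited scale both genes were above both inbred strains in both hybrids, 2 of 10 against 8.77% of all genes. Common-total scaling lowers F1i and raises CAST, which puts F1i below CAST for Plin4 and Zbtb16, so neither keeps this pattern. Zbtb16 levels were 15.8 FPKM in F1r and 12.8 in F1i, against 11.8 in CAST and 10.8 in B6. Plin4 levels were 4.62 FPKM in F1r and 3.47 in F1i, against 3.34 in CAST and 1.98 in B6. For Plin4, F1i and CAST were close together, with F1r above them and B6 below. Sgk1 had the lowest value of this comparison, -0.16. This comparison uses the same 4 libraries as the others.

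The receptor gene was the steadiest of the 10. Nr3c1 was at 27.1 FPKM in F1r, 28.0 in F1i, 28.3 in CAST and 26.5 in B6. Nr3c2, the mineralocorticoid receptor that binds the same hormone, was at 10.7, 8.996, 10.6 and 10.6 FPKM in those libraries. Fkbp5, a cochaperone that lowers the receptor's affinity for hormone and is itself induced by it, was lowest in B6 (8.34 FPKM), with 13.7 in F1r, 11.2 in F1i and 13.8 in CAST. Its relative Fkbp4, which favours the receptor's transport, stayed within 49.1 and 52.5 FPKM. The 3 most abundant chaperones of the receptor were Hspa8, Hsp90ab1 and Hsp90aa1. Hspa8 was at 453 FPKM in F1r, 461 in F1i, 402 in CAST and 574 in B6, a difference of -0.51 between the strains. Hsp90ab1 was at 397 FPKM in F1r, 384 in F1i, 373 in CAST and 389 in B6, and Hsp90aa1 at 306, 307, 315 and 295.

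Of 18 genes of receptor chaperones and coregulators, none was 2-fold apart, against 0.508% of all genes between the hybrids, 5.12% between the strains and 0.392% for the hybrids against the parents. On the deposited scale none was 1.2-fold apart between the hybrids, against 8.2% upward and 5.34% downward. Their median was 0.06 for F1r minus F1i and 0.05 for CAST minus B6. Under common-total scaling all 18 were higher in F1r than in F1i, with a median of 0.32, against 0.27 over all genes. Ptges3, the cochaperone p23, was 1.5-fold lower in CAST, at 43.5 FPKM against 79.4 in B6 (a difference of -0.85, or -0.52 and so not 1.5-fold under common-total scaling), and was named after its value was seen. Among genes of hormone supply, Hsd11b1, the enzyme that regenerates corticosterone inside cells, was at 10.7 FPKM in F1r, 14.02 in F1i, 16.9 in CAST and 11.2 in B6. It was thus lower in value in F1r than in F1i, with a difference of -0.36 (-0.11 under common-total scaling). Hsd11b2, the inactivating enzyme, also chosen after its values were seen, was listed at 0 in F1r, F1i and CAST and at 0.0167 FPKM in B6. The 8 genes of this list that passed the filter had medians of 0.01 for F1r minus F1i and 0.16 for CAST minus B6, with none past 2-fold (0.508% and 5.12% of all genes). Avp and Crhr1 were its other abundant members, and F1r had 14.9 FPKM of Avp, against 19.9 in F1i. On the deposited scale 3 of the 8 (Hsd11b1, Avp and Pomc) were 1.2-fold lower in F1r, and 0 were 1.2-fold higher. Of all genes, 5.34% were lower and 8.2% higher by that rule.

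At the level of transcripts, most of the Sgk1 difference lay in 1 of 13 annotated forms. Sgk1-201 (chromosome 10, 21994666 to 21999903) was at 56.1 FPKM in F1r, 34.3 in F1i, 37.4 in CAST and 63.4 in B6, or 85.0%, 81.8%, 79.6% and 85.4% of the gene. Sgk1-204, which starts far upstream at 21882184, was at 5.03, 4.76, 4.47 and 5.74 FPKM, a difference of 0.07 between the hybrids and -0.30 between the strains. Sgk1-202, whose promoter window holds the full response element shown above, was at 3.93 FPKM in F1r, 2.12 in F1i, 3.42 in CAST and 3.95 in B6. The difference between the hybrids was thus 0.69 for Sgk1-201 and 0.66 for Sgk1-202. In all libraries 4 Sgk1 forms were listed at 0, and the 12 forms other than Sgk1-201 summed to 9.89, 7.65, 9.57 and 10.9 FPKM.

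Tsc22d3 also had 1 leading form. Tsc22d3-201, the main coding form, was at 71.4 FPKM in F1r, 48.9 in F1i, 47.6 in CAST and 59.6 in B6. Tsc22d3-202, annotated as a processed transcript within the span of Tsc22d3-201, was at 22.2, 20.3, 20.8 and 20.8 FPKM. The difference between the hybrids was 0.54 in the first and 0.12 in the second. Tsc22d3-203, the form nearest the distal window shown above, was at 2.27 FPKM in F1r, 1.47 in F1i, 1.83 in CAST and 1.36 in B6.

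The even level of Nr3c1 was the sum of forms with other orders. Nr3c1-204 was at 16.0 FPKM in F1r, 14.4 in F1i, 16.7 in CAST and 14.7 in B6, or between 51.4% and 58.9% of the gene. Nr3c1-203, at 4.63, 5.47, 4.17 and 5.65 FPKM in the same libraries, was lower in F1r and CAST, where Nr3c1-204 was higher. Zbtb16-202 was at 4.95 FPKM in CAST and 3.18 in B6, a difference of 0.51, while Zbtb16-201 was at 6.83 and 7.66, a difference of -0.14. The 2 forms of Plin4 differ by 1 base in length (5756 and 5755), and their division is uncertain, so their sum is given except where the highest transcript alone was read. Fkbp5-201 held from 92.1% to 96.6% of its gene, Errfi1-201 from 91.3% to 98.8% and Cdkn1a-201 from 96.8% to 100%, whereas Ddit4 and Klf9 have 1 form each. Division of reads among overlapping forms is an estimate, and its error was not given in the sources used here.

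**Figure D3:**
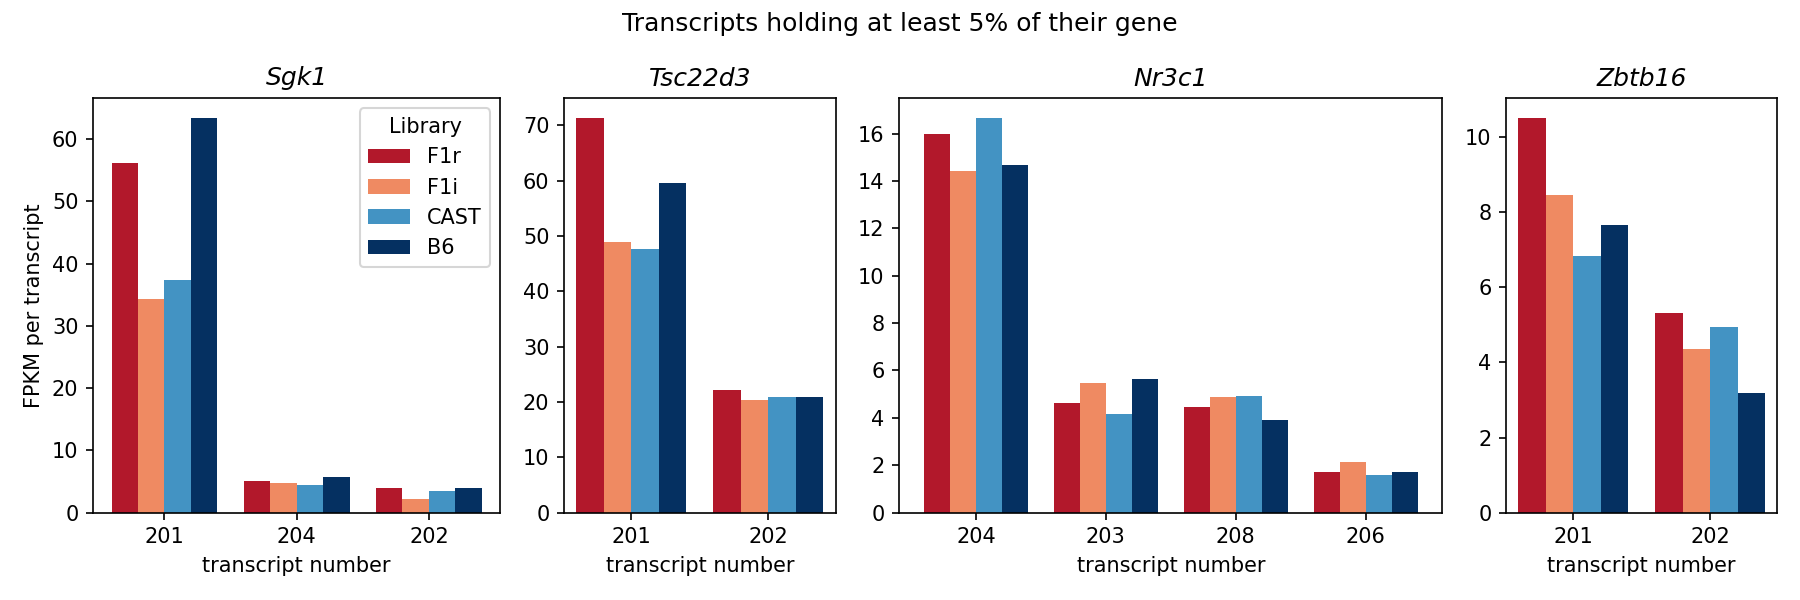
FPKM per transcript (bars, 1 per library F1r, F1i, CAST and B6) for the forms of Sgk1, Tsc22d3, Nr3c1 and Zbtb16 that held at least 5% of their gene on average. Sgk1-201 and Tsc22d3-201 are high in F1r and B6, while Tsc22d3-202 stays between 20.3 and 22.2 FPKM.

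A further 30 genes known to respond to glucocorticoids in rodent brain or other tissues were read beside the 10, and 27 passed the filter. Of these, 24 were higher in value in F1r than in F1i (58.1% of all genes were), 10 were at least 1.2-fold higher (8.2%) and none was 1.2-fold lower (5.34%). None was 2-fold apart, a size that 0.508% of all genes reached, and the median was 0.17. Mt2, a metal-binding metallothionein, was at 287 FPKM in F1r, 233 in F1i, 244 in CAST and 231 in B6. Mt1, of the same family, was at 558 in F1r, 510 in F1i, 471 in CAST and 587 in B6. Glul, the glutamine synthetase of astrocytes, was at 531, 546, 492 and 560 FPKM, with a difference of -0.04 between the hybrids (0.23 under common-total scaling). Per1, a clock gene with a receptor site, was at 12.9 in F1r, 11.7 in F1i, 11.6 in CAST and 14.7 in B6. Dusp1, a phosphatase of MAP kinases, was at 18.7, 16.5, 17.1 and 17.8 FPKM.

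Between the strains the same 27 genes had a median of -0.06, with 11 higher and 16 lower in value in CAST. Of all genes 55.4% were higher. Under common-total scaling their median was 0.19 and 21 of the 27 were higher, where all genes had a median of 0.34 and 84.4% higher. Of the 27, Sult1a1, a sulfotransferase, alone passed 2-fold (5.12% of all genes did), at 2.28 FPKM in CAST and 5.74 in B6, with 5.85 in F1r and 4.32 in F1i. Its difference was -1.04, or -0.78 and so no longer 2-fold under common-total scaling. Sult1a1 thus had F1r and B6 above F1i and CAST on the deposited scale, as Sgk1 and 17.3% of all genes did. Others of the 27 had this order too, among them Nfkbia and Angptl4, whereas others such as Mt2 and Glul did not. How many of the 27 had it was not counted, so no share stands beside the 17.3%. The membership of this list, like that of the 10, was fixed with earlier results of these data known.

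Markers of brain cell types are given beside these values, and their part in the differences was not tested. Between the hybrids, 58.1% of all genes were higher in value in F1r. Of the markers, 2 of 10 oligodendrocyte, 2 of 7 astrocyte, 0 of 6 microglia and 6 of 9 endothelial ones were higher. Their medians were -0.14, -0.08, -0.21 and 0.12. Under common-total scaling these medians turned to 0.12, 0.19 and 0.03 for the first 3 lists and 0.29 for the endothelial list, and all but the last stayed below the median of all genes, 0.27. Between the strains, all 10 oligodendrocyte markers were lower in value in CAST, with a median of -0.89 (-0.55 and 9 of 10 lower under common-total scaling) and 4 past 2-fold (Mobp, Mal, Cldn11 and Opalin, of which Mobp and Opalin stayed past it under common-total scaling), in the direction of Sgk1 and Ddit4 and against that of Fkbp5. Of all genes, 55.4% were higher in value in CAST (84.4% under common-total scaling), and 5.12% were 2-fold apart between the strains. Microglia, neuron, astrocyte and endothelial markers had medians of -0.38, -0.18, -0.16 and -0.05 between the strains. Under common-total scaling these were -0.075, 0.17, 0.18 and 0.21, against 0.34 over all genes. The neuron median between the hybrids was 0.08 (0.35 under common-total scaling). The oligodendrocyte sums were 1683 FPKM in F1r, 1836 in F1i, 1339 in CAST and 2222 in B6. Endothelial sums were 67.2, 65.0, 70.3 and 74.4 FPKM, microglia sums 69.0, 81.0, 67.3 and 89.1, and astrocyte sums 803, 837, 833 and 916. Mural and meningeal sums were 34.1, 34.6, 31.4 and 48.5 FPKM, with medians of -0.02 between the hybrids (0.23 under common-total scaling) and -0.25 between the strains (-0.025 under common-total scaling). Choroid plexus sums were 544, 652, 393 and 644 FPKM, with medians of -0.18 (0.04 under common-total scaling) and -0.70 (-0.36). Of these markers Kl was past 2-fold (5.12% of all genes were), with a difference of -1.09 for CAST minus B6. Under common-total scaling it was at -0.84 and so not 2-fold. The adipocyte genes Adipoq, Cidec and Fabp4 were at no more than 0.15 FPKM in any library, beside Plin4 at up to 4.62. Markers of nasal tissue were highest in CAST, with Bpifb4 at 4.23 FPKM in CAST and 0.308 in B6 and Scgb1c1 at 21.9 and 11.1, against 2.34 in F1r and 0.828 in F1i for Scgb1c1.

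**Figure D4:**
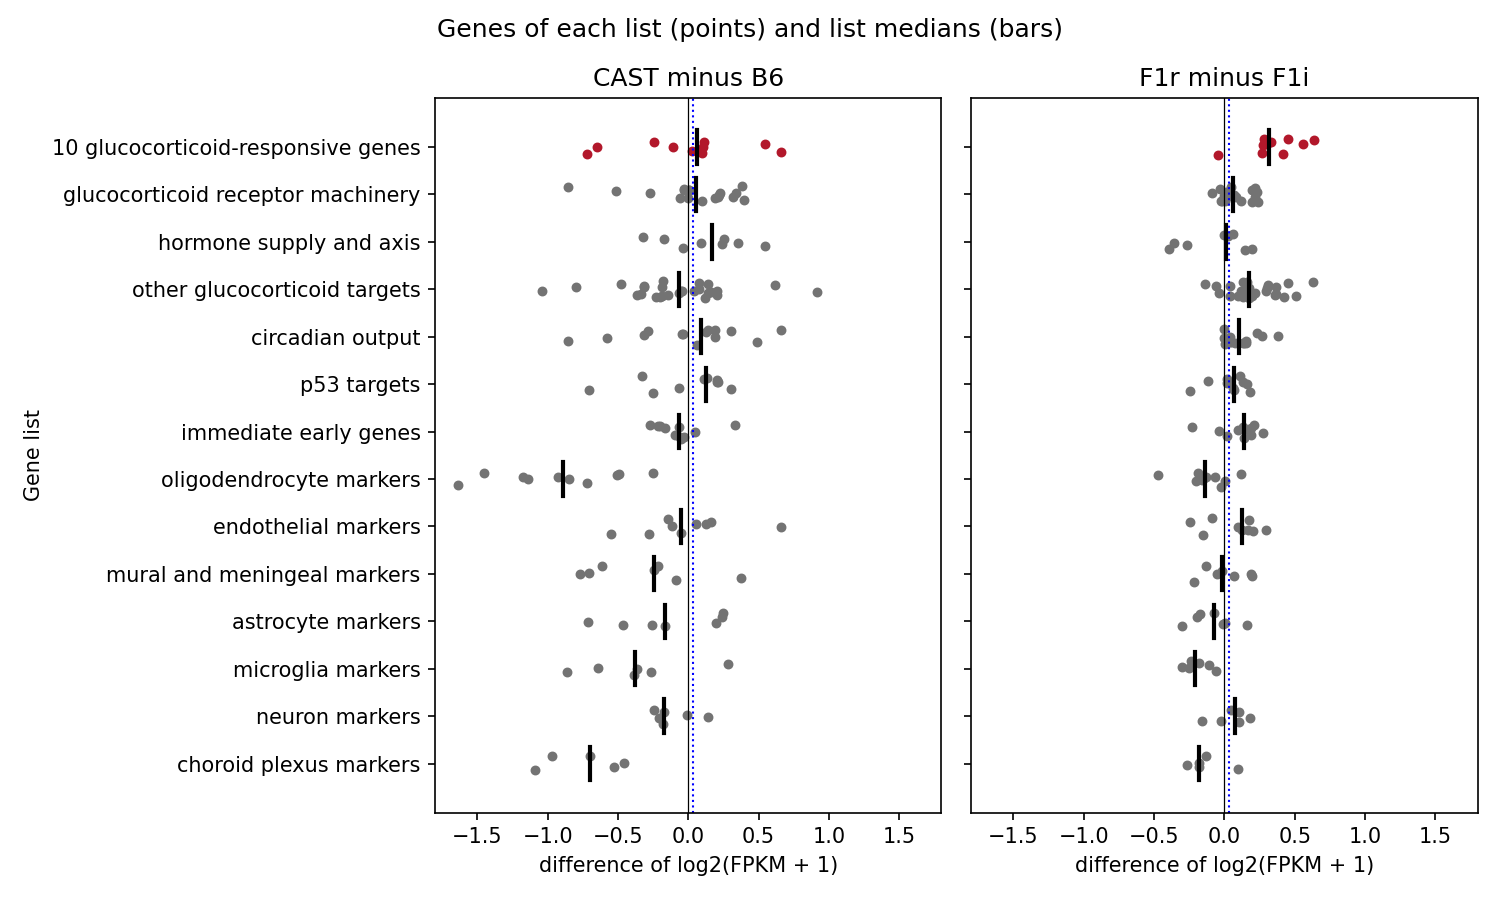
Differences of log2(FPKM + 1) of single genes (points) by list, with the list median (bar) and the median of all genes (dotted line), for CAST minus B6 and F1r minus F1i. The 10 genes have the highest median of the lists drawn between the hybrids (0.32), while oligodendrocyte markers have the lowest between the strains (-0.89). All lists were chosen with earlier results of these data known.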

How the data were processed

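The authors deposited FPKM per transcript, 1 table per library, made from RNA of pooled left hemispheres with a strand-specific kit, per the labels' protocols (the series design text speaks of whole brain). Per the submitters' processing notes, the tools were HISAT2, Cufflinks 2.2.1 and Cuffdiff, after bcl2fastq 2.20 and Trimmomatic 0.36, on build mm9. GENCODE M21 (GRCm38) nevertheless holds 99.5% of the listed transcripts, 97.2% of them at identical coordinates. Not given in the sources used here are the strand setting, the handling of multiply mapped reads and any use of a CAST genome.

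Transcripts of at least 200 bases were summed per gene, and genes with a mean of at least 1 FPKM entered the comparisons, with a pseudocount of 1. With 1 library per group no test was possible, and a count of genes at least 2-fold, 1.5-fold or 1.2-fold apart took its place. Depth is unknown, as the tables hold no counts. Relative depth was taken from long transcripts of single-transcript genes (3000 bases or more) whose value was the worth of 1 fragment in both libraries (25 in F1r, 31 in F1i and 24 in CAST). The 10 genes and the 14 other lists were chosen with earlier results of these data known. The genes to name were the 10, certain fixed receptor and target genes, and of each other list those past 2-fold and the 3 most abundant, of which only those a result turns on are printed. Alternatives were another pseudocount (0.1), no filter or a mean of 5 FPKM, median-ratio or common-total scaling, transcripts of any length, the highest transcript alone and other folds. The 1.2-fold rule, the 1.5-fold and 1.2-fold counts under the other alternatives and the rescaled values of the other lists were added after the values were seen. The scripts, tested on simulated data, used pandas 2.3.3 and numpy 2.4.6 under Python 3.11.15.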

Additional observations from a re-analysis of the deposited data

How the results depend on the processing

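No paired analysis was possible because each group has 1 library. No gene of the 10 passed 2-fold in any of the 3 comparisons under any alternative that kept that rule. With a 1.5-fold rule 3 passed for CAST minus B6, 1 for F1r minus F1i and 0 for the hybrids against the parents, and with the 1.2-fold rule 4, 9 and 2 did. F1r was higher in value for 9 of 10 genes with another pseudocount, no filter, median-ratio scaling or transcripts of any length. It was higher for 8 of the 9 left by a mean of 5 FPKM. With common-total scaling or the highest transcript alone it was higher for 10, where Nr3c1 was at 0.22 and 0.14. Of all genes, 92.5% and 56.0% were higher in F1r under these last 2 settings. Common-total scaling moved the median of the 10 to 0.38 for CAST minus B6 and 0.55 for F1r minus F1i. Less the median of all genes, these were 0.04 and 0.28, against 0.02 and 0.29 without rescaling. The median for CAST minus B6 turned to -0.055 with the highest transcript alone, where Zbtb16 was at -0.14. The causes were not tested.

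Over all genes, 2-fold counts higher and lower for F1r minus F1i were 33 and 37 as reported, 112 and 73 with a pseudocount of 0.1, 57 and 46 with no filter, 12 and 22 at a mean of 5 FPKM, and 99 and 125 with transcripts of any length. For CAST minus B6 they were 393 and 312 as reported, 575 and 494 with a pseudocount of 0.1, and 215 and 158 at a mean of 5 FPKM. For the hybrids against the parents they were 41 and 13, 117 and 24, and 34 and 6 under these settings, and 141 and 105 with transcripts of any length. Depth relative to B6 was estimated and absolute depth is unknown, so counting error could not be given.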

Other observations

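Lists that share regulators with the 10 genes were read in the same way. Of 14 circadian genes, none was 2-fold apart in any comparison (0.508%, 5.12% and 0.392% of all genes were, in the order of the medians that follow), and the median was 0.10 for F1r minus F1i, 0.09 for CAST minus B6 and 0.07 for the hybrids against the parents. Per2, a clock repressor chosen for its value, had levels of 8.52 FPKM in F1r, 6.30 in F1i, 7.95 in CAST and 5.38 in B6. Dbp, an output factor with a strong daily rhythm, was at 34.9 FPKM in F1r, 35.1 in F1i, 28.8 in CAST and 35.3 in B6, and Tef, of the same family, at 85.4, 76.7, 74.2 and 76.4. The hour of death was not given in the sources used here, and its part in these values was not tested.

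Cdkn1a is also a target of p53, and 10 other p53 targets passed the filter. On the deposited scale their median was 0.07 for F1r minus F1i and 0.12 for CAST minus B6. None was then 1.2-fold apart between the hybrids (8.2% of all genes upward and 5.34% downward), and Cdkn1a was at 0.30. Under common-total scaling all 10 p53 targets were higher in F1r than in F1i, with a median of 0.28, and Cdkn1a was at 0.54. The median of all genes was then 0.27. The part of p53 was not tested. Of 11 immediate early genes, which neurons switch on quickly with activity, Dusp1 and Btg2 are in other lists too. In F1r 9 of the 11 were higher in value than in F1i, with a median of 0.14 (58.1% of all genes were higher). In CAST 9 were lower in value than in B6, with a median of -0.07 (55.4% of all genes were higher). Under common-total scaling all 11 were higher in CAST, as were 84.4% of all genes. Their median of 0.23 then stayed below that of all genes, 0.34. On the deposited scale none of the 11 was 1.5-fold apart, against 1.97% of all genes between the hybrids and 12.1% between the strains. Angptl4, a secreted lipase inhibitor named after its value was seen, was the 1 gene of 27 other glucocorticoid targets past 1.5-fold between the hybrids on the deposited scale (1.97% of all genes were), at 1.92 FPKM in F1r, 0.889 in F1i, 1.01 in CAST and 1.36 in B6.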
